A study of Mus musculus with 7 samples.

Results

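The metabotropic glutamate receptors Grm2, Grm3, Grm4, Grm5, Grm7 and Grm8 were examined in bulk RNA of a mouse glioma model. The 6 genes were chosen by symbol as members of the receptor family, and all 6 had a row among the 19257 genes of the normalized counts that the authors deposited. RNA came from endpoint tumors of mouse brain, with 3 libraries of the 3xCR group (replicates 2, 3 and 4, labelled as the control genotype) and 4 of the GPC6 group (replicates 1 to 4). The libraries were made as biological replicates, and which animal each came from was not stated. In both groups, progenitors along the lateral ventricles of embryos had received Cas9 by in utero electroporation together with guides against tumor suppressors, including Nf1 and Trp53, and a piggyBac transposon that labels tumor cells with GFP. GPC6 tumors carried in addition an overexpressed GPC6, from the same transposon system. Its product is a glypican that glia secrete and that promotes the formation of excitatory synapses. The animals were of CD-1 and C57BL/6 background and both sexes, and neither the strain, the age nor the sex behind each library was stated. Tumor tissue was collected under a fluorescence microscope, so a library can hold RNA of any other cell in the piece of tissue taken. The labelled cell type was neural, and all 15 genes of a pan-neuronal list and all 12 of an astrocyte list were read in every library. No brain without a tumor was among the samples, so the levels below could not be set against healthy tissue.

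Metabotropic receptors answer glutamate through G proteins, in contrast to the ion channels of the AMPA, NMDA and kainate classes, and they act more slowly. Group I, to which Grm5 belongs, couples to Gq and phospholipase C and sits mostly behind the synapse. Group II (Grm2 and Grm3) and group III (with Grm4, Grm7 and Grm8) couple to Gi and Go, lower cyclic AMP and mostly limit transmitter release. Several members are not confined to neurons, as Grm3 is well known in astrocytes and Grm5 in immature astrocytes and oligodendrocyte precursors.

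Apart from Grm7 and Grm8, the members lie on different chromosomes of GRCm38, the assembly also called mm10. Grm5 spans 87584168 to 88134907 of chromosome 7, Grm2 106643095 to 106656082 of chromosome 9, Grm3 9485541 to 9725170 of chromosome 5 and Grm4 27422387 to 27521403 of chromosome 17. Grm7 spans 110645581 to 111567230 and Grm8 27275119 to 28135178, both of chromosome 6. All are protein coding genes. No overlapping gene of the annotation had a row of its own in the table, and whether the counting used the strand was not stated, so reads of antisense transcripts annotated at Grm2 and Grm7 cannot be separated from those of the receptors. As the members were mostly highest in the same tumors (values below), the sequence just upstream of their start sites is shown for the 4 members that the RefSeq promoter table (GRCm38.p6) holds. Each line gives the 200 bases from position -250 to -51 on the strand of the gene, 5′ to 3′, with the start site nearest to the annotated gene start used where several are listed. Capitals mark matches to 4 motifs searched on both strands, namely GGGCGG (the GC box), TGACG (the core of the cyclic AMP response element), CCAAT and TATAAA.
Grm2, chr9:106656160-106656359, minus strand: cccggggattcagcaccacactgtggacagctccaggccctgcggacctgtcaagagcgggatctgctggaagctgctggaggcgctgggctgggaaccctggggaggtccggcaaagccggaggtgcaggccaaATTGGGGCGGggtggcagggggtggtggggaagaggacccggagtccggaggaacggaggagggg
Grm3, chr5:9725403-9725602, minus strand: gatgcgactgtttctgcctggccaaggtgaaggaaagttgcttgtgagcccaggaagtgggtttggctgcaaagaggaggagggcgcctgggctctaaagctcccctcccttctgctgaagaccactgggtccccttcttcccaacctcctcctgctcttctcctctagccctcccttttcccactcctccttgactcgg
Grm7, chr6:110645348-110645547, plus strand: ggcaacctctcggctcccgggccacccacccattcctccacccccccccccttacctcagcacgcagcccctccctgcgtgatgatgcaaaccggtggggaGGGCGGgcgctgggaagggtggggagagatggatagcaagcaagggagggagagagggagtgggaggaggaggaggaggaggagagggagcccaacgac
Grm8, chr6:28135197-28135396, minus strand: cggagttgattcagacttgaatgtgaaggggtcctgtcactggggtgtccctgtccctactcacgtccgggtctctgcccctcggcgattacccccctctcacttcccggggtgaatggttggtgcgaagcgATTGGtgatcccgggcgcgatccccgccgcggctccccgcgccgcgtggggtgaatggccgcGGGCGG
The GC box was found in the windows of Grm2, Grm7 and Grm8, and in 24.6% of all 32851 windows of the same length. A CCAAT box stood in the windows of Grm2 and Grm8, on the opposite strand in both, and in 28.4% of all windows. In Grm2 it shares bases with the GC box. The other two motifs were found in none of the 4 windows, and the window of Grm3 held no match. G and C made up 58.5% of the Grm3 window, 67% of that of Grm8, 68% of that of Grm7 and 69% of that of Grm2, against a median of 51.5% over all windows.

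Libraries held 7197692 to 18879762 reads on genes, the deepest being 3xCR replicate 2 and the shallowest GPC6 replicate 1. A normalized count is the number of reads divided by a size factor of the library, so that 1 read was worth between 0.548 and 1.55 normalized counts. Gpc6, the overexpressed gene, had 126 to 226 normalized counts in 3xCR libraries. It had 675, 263, 3434 and 5084 in the libraries labelled GPC6 replicates 1 to 4. All 4 lay above the 3xCR libraries (exact permutation, two-sided, p = 0.057, which is the lowest that 3 against 4 libraries allow), but the library labelled GPC6 replicate 2 was near the 3xCR level. Without it and GPC6 replicate 1, a choice made after seeing the data, the log2 fold changes given next were 1.65 for Grm2, 1.63 for Grm3, 1.82 for Grm4, 0.34 for Grm5, 1.18 for Grm7 and 0.0061 for Grm8, with 0 genes at an adjusted p under 0.05. GPC6 replicate 1 also stood apart, with summed normalized counts of 1195 for 12 genes of proliferating cells against 6860 to 16286 in the other 6 libraries, and of 12630 for 7 genes of the choroid plexus against 66.9 to 3765.

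Mean log2 values of all 6 members were higher in GPC6 than in 3xCR tumors, with log2 fold changes between 0.46 for Grm8 and 2.30 for Grm4 and a median of 1.29, against -0.02 over the 14782 genes tested. None of the 6 differences passed the test. A single library moved the median of the 6 to 0.53 (3xCR replicate 4 left out) or 0.69 (GPC6 replicate 1 left out). In limma on log2(normalized count + 1) with Benjamini-Hochberg adjustment over all genes tested, 0 of 6 members and 0 of 14782 genes (0%) had an adjusted p under 0.05. At an unadjusted p under 0.05 there were 0 of 6 members, against 2.74% of all genes higher and 1.92% lower in GPC6 tumors (689 genes or 4.66% in all). Count models on the recovered reads were alternatives. Adjusted p-values under 0.05 numbered 0 in edgeR (991 unadjusted), 0 in voom (499 unadjusted) and 9 in DESeq2 (1793 unadjusted). None of those 9 was a member, although DESeq2 gave no adjusted p for 5 of the 6, and Grm4 and Grm7 had an unadjusted p under 0.05 in both edgeR and DESeq2. Fold changes depended on the model. The edgeR log2 values were 2.41 for Grm2, 1.10 for Grm3, 3.10 for Grm4, 0.91 for Grm5, 1.78 for Grm7 and 1.72 for Grm8, and those of voom were 0.96, 0.87, 2.02, 0.81, 1.17 and 0.35. The groups overlapped in every member, whereas 2.80% of all genes were without overlap and higher in GPC6 tumors and 3.52% were so and lower (6.32% together). The highest values came mostly from the same 2 tumors. GPC6 replicate 1 had the highest normalized count of all 7 libraries in 6 of 6 members (31.3% of all genes), followed by GPC6 replicate 3 in 5 of 6, all but Grm5 (both together, 15.5% of all genes). GPC6 replicate 4 never lay above the 3xCR range, and GPC6 replicate 2 did so only for Grm4 and Grm5. At the low end, 3xCR replicate 4 had the lowest value in 5 of 6 members. The members also varied more within groups than most genes. Their SD of log2 values within groups was 0.89 for Grm5, 1.13 for Grm7 and 1.58 to 2.39 for the other four, against a median of 0.50 over all genes tested.

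**Figure D1:**
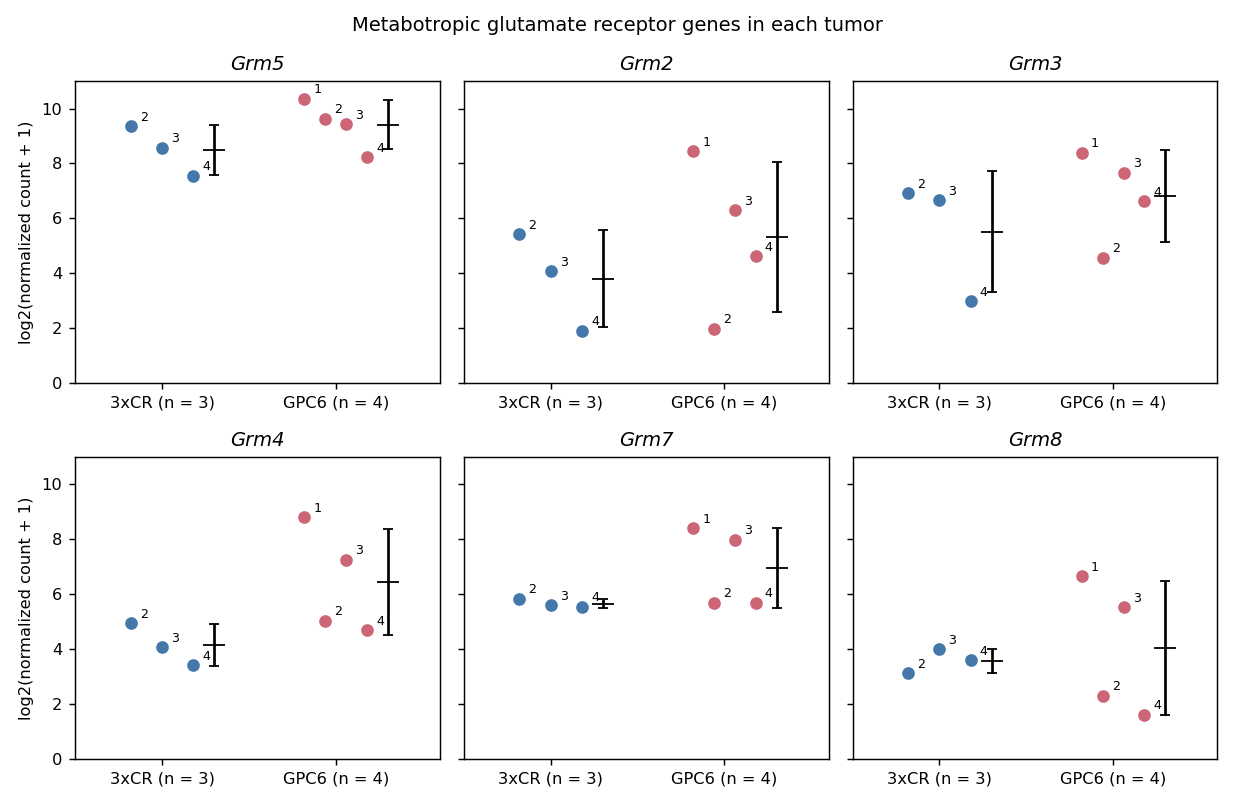
Values of the 6 receptor genes in each tumor as log2(normalized count + 1), with 3xCR libraries in blue and GPC6 libraries in red, the replicate number beside each point, and the mean ± SD of the log2 values as black bars. GPC6 replicate 1 is the highest point in every panel and the groups overlap in all 6.

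In the following, values per library are given in the order of replicates 2, 3, 4 for 3xCR tumors and 1, 2, 3, 4 for GPC6 tumors. Grm5, the group I receptor that raises intracellular calcium through Gq, was the most abundant member. The 3xCR tumors held 656, 381 and 186 normalized counts (408 ± 236, SD, n = 3). The GPC6 tumors held 1309, 791, 691 and 299 (773 ± 416, SD, n = 4). Replicates 1, 2 and 3 of the GPC6 group lay above every 3xCR library, and GPC6 replicate 4 lay below 3xCR replicates 2 and 3. The log2 fold change was 0.92 (standard error, SE, 0.57) with an adjusted p of 0.730 in limma and a p of 0.229 when the normalized counts were permuted exactly (two-sided, as in all permutation tests here). Without 3xCR replicate 4 the Grm5 value was 0.44, and without GPC6 replicate 1 it was 0.60. Grm5 was the only member whose highest value after GPC6 replicate 1 was in GPC6 replicate 2. Grm4 lay only narrowly above the 3xCR range in GPC6 replicate 2, and the remaining members lay within or below it. That library had the highest summed normalized count of 10 oligodendrocyte precursor genes (102098, against 21564 to 73793 in the other libraries) and, at 12286, a pan-neuronal sum within the 3xCR range of 9410 to 16689. The part of either in the Grm5 value was not tested.

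Grm2 was the most variable member within groups. This group II gene, which encodes a presynaptic receptor of cortical and other neurons, stood at 42.2, 15.8 and 2.76 normalized counts in the 3xCR and at 348, 2.96, 77.2 and 23.7 in the GPC6 tumors. The highest library was thus 126 times the lowest. The values of 3xCR replicate 4 and GPC6 replicate 2 rested on 2 and 3 reads, which gives exact Poisson 95% intervals of 0.335 to 9.98 and 0.611 to 8.66 normalized counts that cover counting error only. The means of 20.3 ± 20.1 (SD, n = 3) and 113 ± 160 (SD, n = 4) differed by less than the spread (log2 fold change 1.53, SE 1.51, adjusted p = 0.778 in limma, exact permutation p = 0.343). The Grm2 value was 0.49 without GPC6 replicate 1, 0.58 without 3xCR replicate 4, 2.34 without 3xCR replicate 2 and 2.65 without GPC6 replicate 2. Grm3, the group II receptor shared by neurons and astrocytes, stood at 119, 99.5 and 6.91 normalized counts in the 3xCR and at 335, 22.7, 201 and 97.7 in the GPC6 tumors. Here 2 GPC6 tumors exceeded the 3xCR range, and 1 tumor of each group, 3xCR replicate 4 and GPC6 replicate 2, stood well below the rest. Its log2 fold change was 1.30 (SE 1.18, adjusted p = 0.763 in limma), between means of 75.1 ± 59.9 (SD, n = 3) and 164 ± 136 (SD, n = 4), with an exact permutation p of 0.400. Without 3xCR replicate 4, whose value was 5 reads, the Grm3 log2 fold change was 0.03. It was 0.77 without GPC6 replicate 1, 1.99 without 3xCR replicate 2 and 2.05 without GPC6 replicate 2.

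Among group III receptors, Grm4 differed most between the group means. Grm4, best known from the parallel fibers of the cerebellum, stood at 29.6, 15.8 and 9.67 normalized counts in the 3xCR and at 445, 31.6, 151 and 24.7 in the GPC6 tumors. All GPC6 tumors but replicate 4 lay above the 3xCR range, replicate 2 only narrowly. The mean was 18.4 ± 10.2 (SD, n = 3) in 3xCR and 163 ± 197 (SD, n = 4) in GPC6 tumors, and the log2 fold change was 2.30 (SE 1.01, unadjusted p = 0.054 and adjusted p = 0.730 in limma, exact permutation p = 0.114). Without GPC6 replicate 1 it was 1.51. Weights per library, estimated by limma's arrayWeights, brought the adjusted p of Grm4 and Grm7 to 0.029, in a fit that called 1962 genes.

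Grm7, the receptor of presynaptic active zones, was the steadiest member in 3xCR tumors. Its 3xCR values of 55.9, 47.4 and 45.6 normalized counts (49.6 ± 5.50, SD, n = 3) lay close together, and GPC6 replicates 2 and 4 lay among them with 50.4 each. GPC6 replicates 1 and 3, with 335 and 252, stood far above. The GPC6 mean was 172 ± 145 (SD, n = 4) and the log2 fold change 1.28 (SE 0.74, adjusted p = 0.730 in limma, exact permutation p = 0.286), or 0.79 without GPC6 replicate 1. Grm8, a presynaptic receptor closely related to Grm4 and Grm7, was the least abundant member, with 2 to 64 reads per library. It stood at 7.67, 14.9 and 11.05 normalized counts in the 3xCR (11.2 ± 3.61, SD, n = 3) and at 98.9, 3.95, 45.2 and 2.06 in the GPC6 tumors (37.5 ± 45.5, SD, n = 4), so that GPC6 tumors lay on both sides of the 3xCR range, 2 above it and 2 below. The log2 fold change of 0.46 (SE 1.25, adjusted p = 0.922 in limma, exact permutation p = 0.571) turned to -0.42 without GPC6 replicate 1 and to -0.04 without GPC6 replicate 3, and was 0.23 without 3xCR replicate 2 and 1.03 and 1.26 without GPC6 replicates 2 and 4.

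Grm6, the group III receptor of retinal ON bipolar cells and no member here, was looked up as well. It was at 1 read in 3xCR replicate 4 and GPC6 replicate 2 and at 0 in the other 5 libraries, where a count of 0 allows 1.64 to 4.64 normalized counts.

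**Figure D2:**
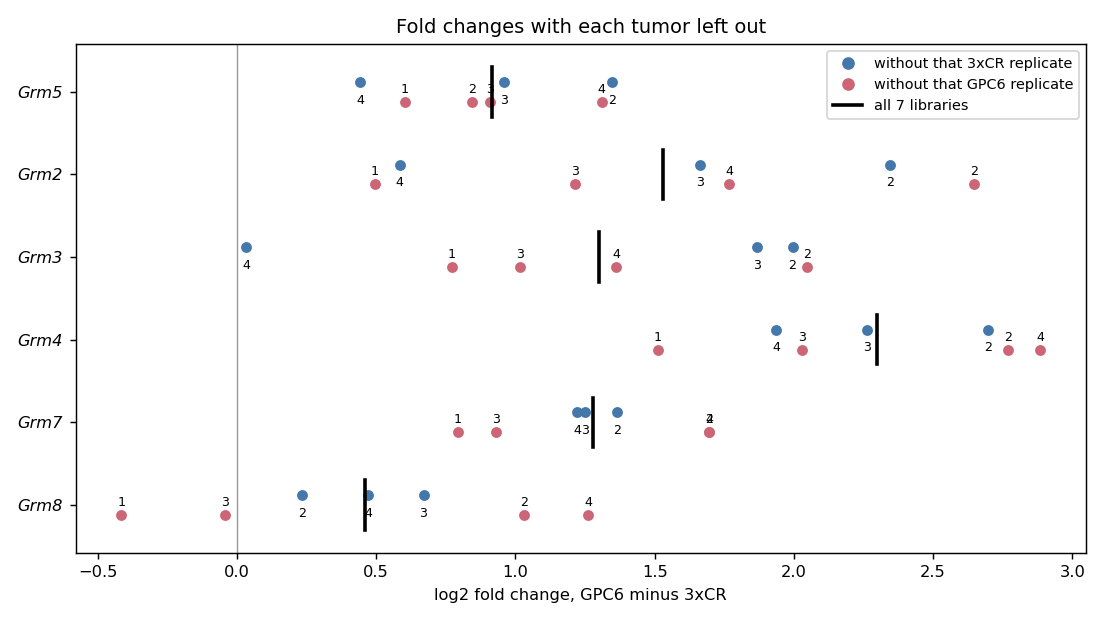
Log2 fold change of each receptor gene with all 7 libraries (black line) and with 1 library left out at a time (points, numbered by the replicate left out, blue for 3xCR and red for GPC6). Grm4 stays between 1.51 and 2.88, while Grm8 falls below 0 without GPC6 replicate 1 or 3 and Grm3 comes to 0.03 without 3xCR replicate 4.

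Levels of different genes were compared per length, as normalized counts per kilobase of merged exons. In order of their mean log2 level over the 7 libraries, the members were Grm5 (60.2 ± 36.9 normalized counts per kilobase, SD, n = 7), Grm3 (41.4 ± 36.9), Grm7 (20.3 ± 20.6), Grm4 (16.9 ± 26.7), Grm2 (15.0 ± 25.3) and Grm8 (2.65 ± 3.56). Grm5 ranked first in all libraries but GPC6 replicate 4, where it was second to Grm3 with 29.2 against 32.1 per kilobase. Grm8 ranked last in all libraries but 3xCR replicate 4, where Grm2 was last. Neighbours in this order were compared within libraries by two-sided exact sign-flip permutation tests over the 7 libraries, adjusted over the 5 pairs. The order, and with it the sign of each difference, came from the same values, so these p-values can be too low. None passed an adjusted p of 0.05. The SD over libraries was 0.78 for Grm7 minus Grm4 and 1.64 for Grm2 minus Grm8, a spread between libraries and not the error of the mean. The log2 differences in level were 1.02 between Grm5 and Grm3 (higher in 6 of 7 libraries, permutation p = 0.047, adjusted p = 0.078) and 1.87 between Grm2 and Grm8 (6 of 7, permutation p = 0.031, adjusted p = 0.078). Between Grm7 and Grm4 the difference was 0.96 (6 of 7, permutation p = 0.031, adjusted p = 0.078). Grm3 and Grm7 differed by 0.82 (5 of 7, exact p = 0.156) and Grm4 and Grm2 by 0.49 (4 of 7, exact p = 0.391). The place of Grm3 depended on the length used, as with the longest coding sequence in place of merged exons its log2 level minus that of Grm7 was -0.06.

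The summed level of the 6 members per kilobase was 127, 85.3 and 31.5 in the 3xCR tumors and 450.3, 99.5, 222 and 79.0 in the GPC6 tumors. Shares of this sum describe which receptors the mRNA of a tumor was made of, whatever its total. Grm5 made up 50.6% ± 7.07 (SD, n = 3) in 3xCR and 43.3% ± 23.1 (SD, n = 4) in GPC6 tumors, with 28.4% in GPC6 replicate 1 at one end and 77.6% in GPC6 replicate 2 at the other. Grm3 made up 25.4% ± 16.2 (SD, n = 3) and 25.6% ± 13.8 (SD, n = 4). Its share was 7.19% in 3xCR replicate 4 and 7.49% in GPC6 replicate 2, and 24.4% to 40.6% in the other 5 tumors. Grm4 was the only member whose shares did not overlap between groups with merged exon lengths. It held 3.90%, 3.10% and 5.13% in the 3xCR tumors and 16.5%, 5.31%, 11.4% and 5.23% in the GPC6 tumors. The means differed by 5.57 percentage points (exact permutation p = 0.057, the smallest this design can give, unadjusted for the 6 members compared). The lowest GPC6 share (5.23%, GPC6 replicate 4) was above the highest 3xCR share (5.13%, 3xCR replicate 4) by far less than 1 percentage point. They rested on 24 and 7 Grm4 reads. The 7 reads give an exact Poisson 95% interval of 3.89 to 19.9 normalized counts around 9.67, so counting error alone could reverse the order of these shares. With the longest coding length the Grm4 shares of the groups overlapped (difference 5.98 percentage points, exact permutation p = 0.114), and without GPC6 replicate 1 the difference was 3.26 percentage points. For the other 5 members the exact permutation tests of the shares gave p between 0.514 and 1.

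**Figure D3:**
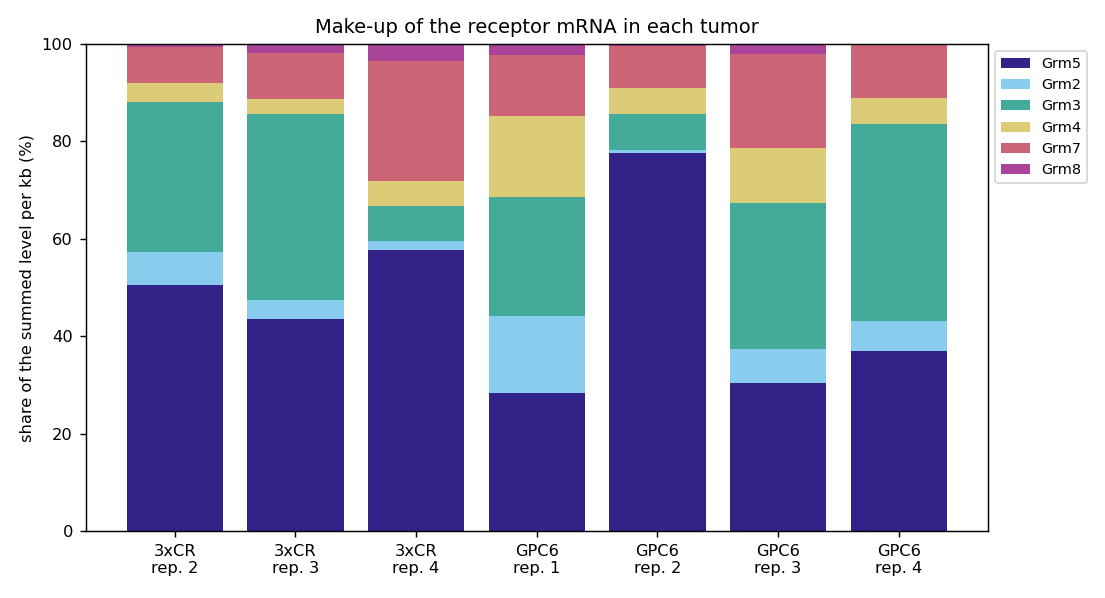
Share of each receptor gene in the summed normalized counts per kilobase of the 6 members, as stacked bars that add to 100% for each of the 7 tumors. Grm5 fills between 28.4% and 77.6% of the bar. The Grm4 segment is at most 5.13% in 3xCR and at least 5.23% in GPC6 tumors, shares that rest on 7 and 24 reads.

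Since these receptors are mostly neuronal, each member was also set against neuronal RNA in the same tumor. In bulk tissue, fewer cells of a type and less RNA per cell cannot be told apart. The summed normalized counts of the 15 pan-neuronal genes ranged from 9410 to 16689 in 3xCR and from 12286 to 84621 in GPC6 tumors, the highest being GPC6 replicate 1, followed by GPC6 replicate 3 with 47156. Of those 15 genes, 13 were highest in GPC6 replicate 1 and 12 had GPC6 replicate 3 next. The log2 value of a member minus the mean log2 value of the list moved less than the member itself. Relative to the list, the range over the 7 libraries was 1.43 against 2.85 for Grm7 itself, 1.86 against 5.39 for Grm4 and 2.53 against 2.81 for Grm5. The difference between groups was then 0.81 for Grm4, 0.04 for Grm2, -0.19 for Grm3, -0.21 for Grm7, -0.57 for Grm5 and -1.03 for Grm8, on the log2 scale. In two-sided exact permutation tests the p-values of these 6 differences lay between 0.229 and 0.971. With the list score as a covariate in limma, the log2 fold changes of Grm2, Grm3, Grm7 and Grm8 were at or below 0 (-1.41, -0.76, -0.0033 and -1.50) and those of Grm4 and Grm5 were 0.44 and 0.23, each with an adjusted p of 1.00.

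Members did not all follow the same marker list. Likeness was measured as the root mean square difference of log2 values, each centred on its mean over the 7 libraries, and this comparison with 14 marker lists was chosen after the values had been seen. Grm7 and Grm4 were nearest to the pan-neuronal list, at 0.44 and 0.65. Grm2 and Grm3 were nearest to the list of cortical neurons, at 0.41 and 0.65, whose 8 genes summed to 174 to 1621 normalized counts in 3xCR and 445 to 12637 in GPC6 tumors. Tbr1, Neurod6 and Emx1 of that list were at 0 in at least 1 library. Grm5 was nearest to the astrocyte list, at 0.55. That list, of 12 genes, summed to 17846 in 3xCR replicate 4, against 34533 to 80300 in the other 6. The same library was lowest in 5 of 6 members and in the sums of the pan-neuronal and cortical neuron lists. In GPC6 replicate 2, where Grm5 was high, the astrocyte list summed to 34533. Grm8 was near none, with 1.00 to the list of cerebellar granule neurons as the smallest difference. Of that list Gabra6 and Neurod1 were at 0 in at least 1 library. Libraries that differ in depth and in the tissue taken are the points behind all these values.

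**Figure D4:**
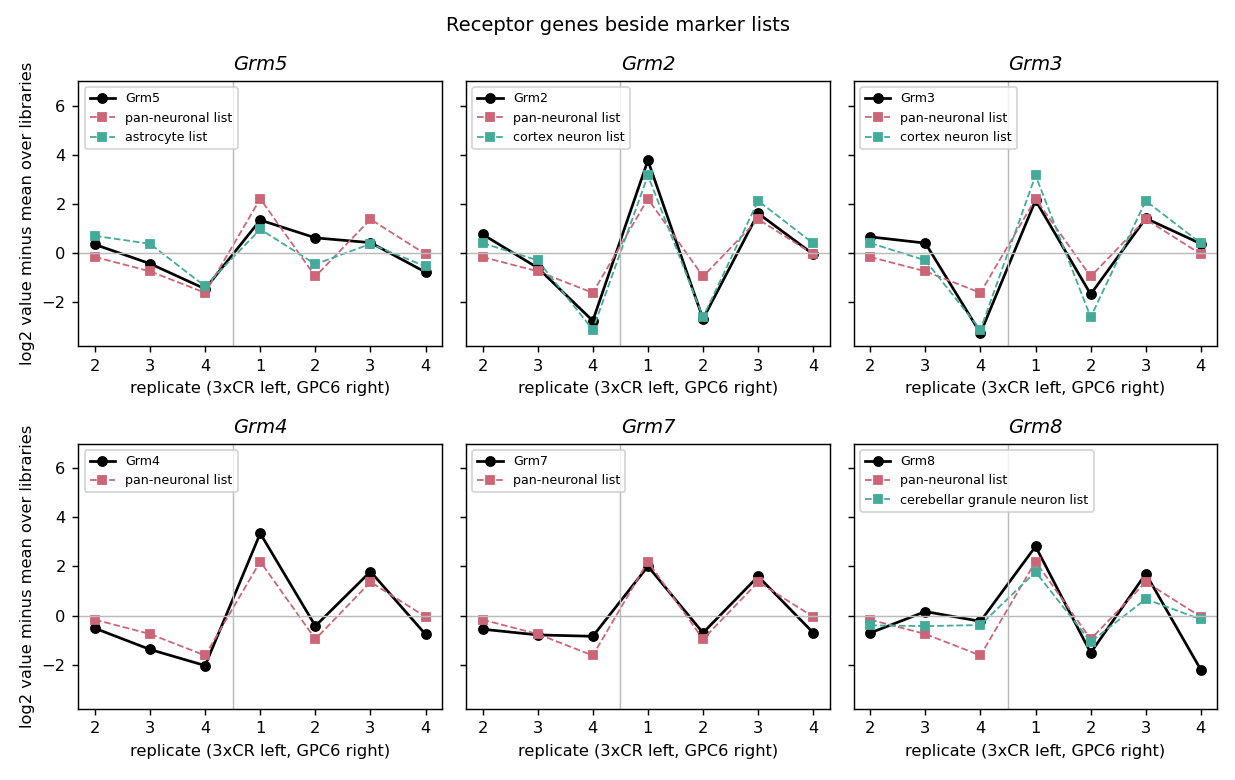
Each receptor gene (black) beside the pan-neuronal list (red) and, where another list was nearer, that list (green), as log2 values minus their mean over the 7 libraries, with 3xCR replicates left and GPC6 replicates right of the grey line. Grm2 follows the cortical neuron list through its lows in 3xCR replicate 4 and GPC6 replicate 2. Grm5 is high in GPC6 replicate 2, where the pan-neuronal list (-0.96) and the astrocyte list (-0.46) both lie below the mean over libraries.

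The single genes most like each member were named by the same measure among all genes tested except the other members, as a description over 7 libraries. Nearest to Grm5 were Pde8b, a phosphodiesterase of cyclic AMP (0.13), Slc22a17 (0.14) and Elavl3, a neuronal RNA-binding protein of the pan-neuronal list (0.15). Nearest to Grm2 were Sncb, which encodes beta-synuclein (0.33), Dgkg, a diacylglycerol kinase (0.35), and Snhg11 (0.35). For Grm3 they were Acot3, an acyl-CoA thioesterase (0.22), Elovl2, an elongase of polyunsaturated fatty acids (0.37), and Nrsn1 (0.42), and Acot3 averaged only 11.9 normalized counts. Grm4 was most like Nos1ap, an adaptor of neuronal nitric oxide synthase (0.20), Cntnap1, a protein of the paranodal junction (0.23), and 5330417C22Rik (0.28). Grm7 was most like Cep170b (0.20), Cx3cl1, the chemokine fractalkine (0.25), and Hapln4, a link protein of perineuronal nets (0.25). The genes nearest to Grm8 were Vwa3a (0.33), Mrap2, an accessory protein of melanocortin receptors (0.39), and the adhesion molecule L1cam (0.41). Between members the smallest difference was 0.73, between Grm4 and Grm7, and the largest was 1.72, between Grm2 and Grm5. These cannot be ranked against the nearest genes above, which were the smallest differences out of all other genes tested.

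The partners and effectors of the receptors were described from 6 lists of 52 genes, of which 51 could be tested. Higher means in GPC6 tumors were found for 43 of the 51, with a median log2 fold change of 1.06, while 48.3% of all genes tested were higher. At an adjusted p under 0.05 limma found 0 of the 51. At an unadjusted p under 0.05 there were 7 higher and 0 lower, and 4 genes were without overlap and higher in GPC6 tumors, against 2.74% and 2.80% of all genes. These 4, Homer1, Grasp, Gnai1 and Adcy9, were picked out after their values had been seen. GPC6 replicate 1 was the highest library for 40 of the 51, and for 31.3% of all genes tested. The same library had the highest pan-neuronal sum, as given above, and the part of neuronal RNA in the values was not tested. Without GPC6 replicate 1 the medians given next were 0.80 for the partners of group I receptors, 0.50 for the Gq arm, 0.35 for the regulators and -0.02 for the 3 partners of group III receptors. Leaving out 3xCR replicate 4 gave a median of 0.77 for the Gi and Go arm, leaving out 3xCR replicate 2 one of 1.85, and that of the group III partners lay between -0.04 and 0.68 with any 1 library left out.

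Postsynaptic partners of group I receptors had a median log2 fold change of 1.25, with 7 of 8 higher. Homer1, whose product ties the Grm5 protein to the postsynaptic density, stood at 280.1, 226 and 160.2 normalized counts in the 3xCR and at 824, 290.5, 562 and 312 in the GPC6 tumors (log2 fold change 1.06, SE 0.41, adjusted p = 0.730 in limma). Grasp, the scaffold also called tamalin, had means of 102 ± 15.2 (SD, n = 3) and 269 ± 155 (SD, n = 4). Ncdn, which encodes neurochondrin, a regulator of Grm5 at the membrane, was the most abundant gene of the list and the one of largest log2 fold change, at 1.96 (SE 0.88), with means of 1626 ± 1080 (SD, n = 3) and 8695 ± 9348 (SD, n = 4). Homer3 was the exception, with a lower mean in GPC6 tumors of 211 ± 70.1 (SD, n = 4) against 299 ± 23.3 (SD, n = 3). Along the Gq arm, which runs from G proteins over phospholipase C to protein kinase C, 11 of 13 genes were higher with a median of 0.85, and none had an unadjusted p under 0.05. Prkcb, a form of protein kinase C, was the most abundant gene of the arm, with a log2 fold change of 1.18 (SE 0.74), and Itpr2, an IP3 receptor, had the smallest (-0.39, SE 0.56).

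On the side of groups II and III, 11 of 13 genes of the Gi and Go arm were higher, with a median of 1.23. Gnai1, the alpha subunit of a Gi protein, stood at 534, 379 and 231 normalized counts in the 3xCR and at 1299.9, 622, 711 and 611 in the GPC6 tumors (log2 fold change 1.09, SE 0.38, adjusted p = 0.730 in limma). Adcy9, an adenylyl cyclase, had a log2 fold change of 1.84. Kcnj6, a potassium channel opened by these G proteins, had the largest of the arm (2.19, SE 1.23), although GPC6 replicate 2 held 2.96 normalized counts of it. Gnai2, the most abundant gene of the arm, had the smallest, at -0.52. That gene is abundant in microglia, and the summed counts of 10 microglial genes were 30636 to 53929 in 3xCR and 15980 to 27401 in GPC6 tumors, whose part in the Gnai2 value was not tested. Partners of group III receptors had log2 fold changes of 0.85 for Elfn1 (SE 0.51), 0.22 for Elfn2 (SE 0.68) and 0.10 for Pick1 (SE 0.34). Elfn1, which recruits Grm7 across the synapse, did not share the pattern of that receptor, as its 2 highest libraries were GPC6 replicates 4 and 2 with 743 and 682 normalized counts. Regulators that end the signal had a median of 0.80 with 8 of 10 higher, from Rgs4 (1.76, SE 0.76, limma unadjusted p = 0.048) over Arrb1, the most abundant (0.86), to Arrb2 (-0.31). Among the other class C receptors, Gabbr2 and Gabbr1, the subunits of the GABA-B receptor, had log2 fold changes of 2.84 (SE 0.95) and 1.45 (SE 0.73), and Gprc5b had -0.08.

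**Figure D5:**
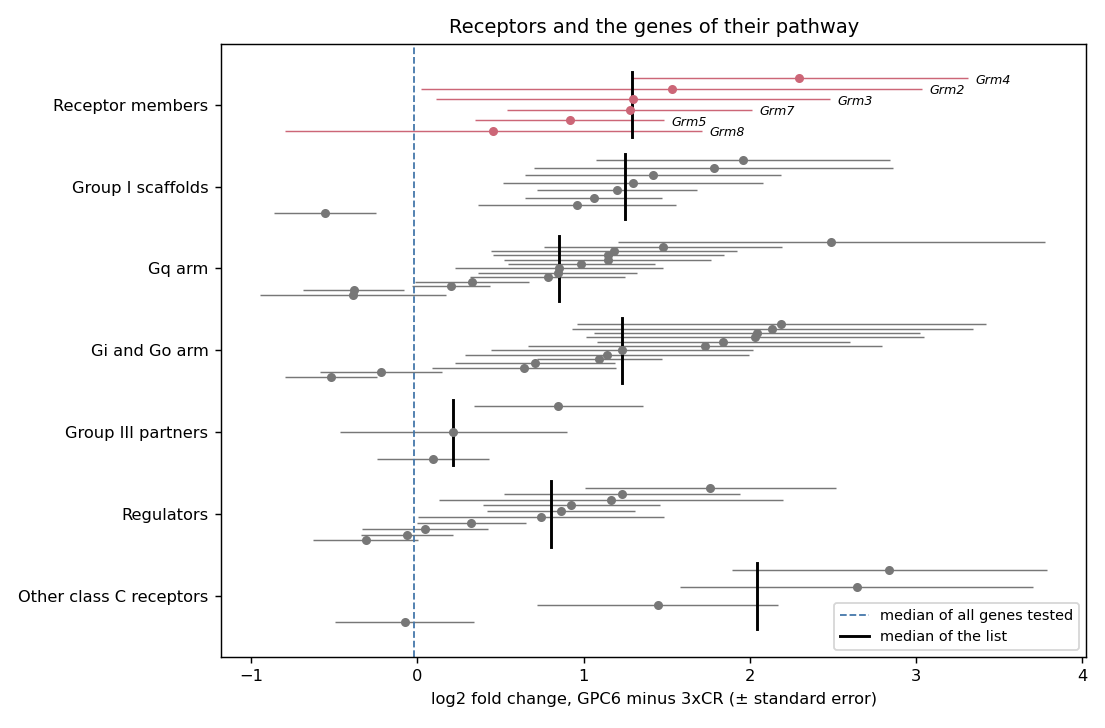
Log2 fold changes between GPC6 and 3xCR tumors with SEs for the 6 receptor genes (red) and 51 genes of their pathway (grey) in 6 lists, with the median of each list as a black line and that of all genes tested as a dashed line. List medians lie between 0.22 for the partners of group III receptors and 2.04 for the other class C receptors, against -0.02 over all genes.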

How the data were processed

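RNA was isolated from tumor tissue, and stranded mRNA libraries were sequenced. Reads were aligned by the authors with STAR 2.5.0a (mm10), who built count matrices with Rsamtools and GenomicFeatures and normalized them with DESeq2 1.20.0. The deposited values are a linear, normalized signal, that is read counts over the size factor of their library, with no correction for length. How reads shared by several genes were counted is not given in the sources used here. Of 19282 entries, 25 named as dates were left out (0.254% to 0.361% of a library), and 0 further sample columns were present. All values (100%) were whole multiples of 1 read within 0.01, so whole reads were recovered. The libraries held 7197692 to 18879762 reads, which limits genes with few reads.

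Groups were compared with limma 3.58.1 (R 4.3.3) on log2(normalized count + 1). The 14782 genes averaging at least 10 were tested, with a variance trend, two-sided, called at an adjusted p under 0.05. Fold changes are on this scale, where the pseudocount can change those of low genes. Single values were compared with exact permutation tests, in which 3 against 4 libraries cannot go below p = 0.057. The labels name no batch, and the tumors, stated to be biological replicates, are the unit. Lengths came from GENCODE M21 (96.0% of symbols matched). Alternatives were edgeR 4.0.16, DESeq2 1.42.0 and voom on recovered reads, other pseudocounts, filters, scalings, variances, library weights, a replicate block, a neuronal covariate and leaving out each library. The fits were tested on simulated data in which the spread between libraries was capped. That test therefore does not show the power for genes as variable as the members. Members, lists and tests were chosen with earlier results of these data known, and lists were written by hand. Named genes were all members, Grm6, per list the most abundant gene and both extremes of log2 fold change (all of lists of at most 3), and the 3 genes nearest to each member. Results that need items withheld from this text are not reported here.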

Additional observations from a re-analysis of the deposited data

Results flagged for a closer look

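In the GPC6 group the most extreme of 4 libraries was compared with its neighbour by the ratio of Dixon, at the 95% critical value. Of 51 quantities examined this way, 2 met it, where chance gives about 2.55. Grm5 relative to the pan-neuronal list, in log2 units, was 0.94 in GPC6 replicate 2, against -1.37 to -1.58 in the other three GPC6 libraries and -0.12 to -0.47 in the 3xCR libraries. The score of 12 genes of proliferating cells was -3.04 in GPC6 replicate 1, against 0.36 to 1.06 in the other three. With 3 libraries, 3xCR tumors were too few for this ratio.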

How the results depend on the processing

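Across up to 24 alternatives, no log2 fold change of a member passed an adjusted p of 0.05 except Grm4 (2.84) and Grm7 (2.02) under library weights, where 1962 genes were called; DESeq2 called 9. Leaving out 1 library at a time called 0 genes, and the genes at an unadjusted p under 0.05, 689 in all libraries, were 119 when 3xCR replicate 4 was left out and 1401 when GPC6 replicate 2 was. With the pan-neuronal score as a covariate the log2 fold changes of Grm2, Grm3, Grm7 and Grm8 became -1.41, -0.76, -0.0033 and -1.50, and the list medians became -0.38 for the members, 0.019 for group I scaffolds, 0.057 for the Gq arm, -0.014 for the Gi and Go arm, 0.0044 for regulators and 0.33 for other class C receptors. Without 1 library, Grm8 ranged from -0.42 to 1.26. For same-numbered tumors of the groups, r of their deviations across genes was -0.19, 0.12 and 0.30 for numbers 2, 3 and 4. Between different numbers it ran from -0.46 to 0.50. Genes are not independent replicates, so these values cannot tell whether the number pairs tumors. With the number as a replicate block, 0 genes were called. GPC6 replicate 1 has no 3xCR tumor of its number, so the block gave the fold changes found without it, with Grm8 at -0.42. With the longest coding length, the log2 level of Grm3 minus Grm7 was -0.063 and the GPC6 minus 3xCR difference in the Grm7 share 0.249 percentage points. Without 1 library, share differences ranged from -8.94 to 6.60 for Grm3, -4.17 to 4.38 for Grm7 and -1.42 to 0.049 for Grm8. Relative to the pan-neuronal list, Grm2 differed by -0.10 with a pseudocount of 5 and by -0.24 against the cortical list. Without 1 library that difference ranged from -0.51 to 0.63 for Grm2, -1.07 to 0.33 for Grm3 and -0.46 to 0.12 for Grm7. The causes were not tested. Grm8 has no value at a mean of at least 50. Low read numbers limit Grm2 and Grm8.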
